A study of Danio rerio with 4 samples.

Results

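Mitochondria make most of a resting cell's ATP by oxidative phosphorylation. Complexes I and II pass electrons from NADH and succinate into the inner membrane, complex III and complex IV (cytochrome c oxidase) hand them on to oxygen, and complex V (ATP synthase) uses the proton gradient that builds up. A few core subunits are encoded in the mitochondrial genome and the others in the nucleus, and complex II is wholly nuclear. Heart muscle is known for its large demand on this pathway, whereas the cells measured here derive from the epicardium, the layer that covers the heart.

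The nuclear genes of oxidative phosphorylation were taken by name alone, as the genes whose zebrafish symbol begins with nduf (leaving out the ndufaf assembly factors), sdha to sdhd, uqcr, cox4 to cox8 or atp5. These were 85 of the 20905 genes in the count tables, 16194 of which could be given a symbol. Of the 85, 36 were named for complex I, 9 for complex II, 7 for complex III, 14 for complex IV and 19 for complex V. Structural subunits made up 79 of the 85. The other 6 were *SDHAF2*, *SDHAF3*, *SDHAF4* and *sdhaf1*, which in mammals and yeast help to assemble complex II, and *atp5if1a* and *atp5if1b*, zebrafish counterparts of the mammalian inhibitor of ATP synthase. The names do not settle every place in a complex. *ndufa4b* was counted with complex I, but the mammalian NDUFA4 protein is a subunit of complex IV, and the mammalian COX7A2L protein joins complexes III and IV. The choice by name also leaves out *CYC1*, the cytochrome c1 of complex III, so the values for complex III are without it. Symbols are given as the gene name table spells them, and genes that share a symbol are told apart by their Ensembl identifier.

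Single cells were analysed from ventricles of adult zebrafish at 7 days post injury (7 dpi), the injury being a cryoinjury of the ventricle in every fish. Both genotypes carried a *tcf21*-driven reporter, Tg(tcf21:mCherry) in the sample labels, which marks cells of epicardial origin, and mCherry-positive cells were sorted one to a well. Wild type (WT) siblings were compared with *prrx1b*-/- fish, which carry a nonsense mutation in the transcription factor gene *prrx1b*, with 2 plates of 384 wells for each genotype. The cells of a genotype came from several hearts, and no source says which hearts went to which plate. Each p-value of the genotype comparison below therefore measures the spread between plates, which may be technical. Where cells of the same plate are compared, a p-value measures how far that difference varied from plate to plate. No uninjured hearts were among the samples. By the study's methods the reporter was switched on in the embryo by a *tcf21*-driven Cre, so it follows the descendants of cells with *tcf21* activity at that time.

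Molecules were counted from the 3′ end of transcripts with molecular barcodes, so that 1 transcript gives 1 count whatever its length, and levels are given as transcripts per 1000000 transcripts (CPM) of a plate or as a share of its transcripts. Wells with at least 1000 transcripts were kept as cells, 357 and 364 in the WT plates and 366 in each *prrx1b*-/- plate, with 2628354 to 3773059 transcripts per plate and a median of 5066 to 7654 per cell. Depth differed with genotype, since the WT plates held a median of 6055 and 5066 transcripts per cell and the *prrx1b*-/- plates 7654 and 7543. Transcripts of the fibroblast marker list were detected in every cell and markers of the remote epicardium (*tcf21*, *tbx18*, *rtca*) in 73.6 to 80.9% of the cells of a plate. Collagens made up most transcripts of the fibroblast list. For example, *COL1A1* (ENSDARG00000035809) was at 6163 to 8829 CPM and *postnb* at 7.23 to 23.3 CPM. Leukocyte markers summed to 255 and 191 CPM in WT plates against 36.1 and 37.0 CPM in *prrx1b*-/- plates. Cardiomyocyte markers summed to 248 CPM in WT plate 1 and to 25.9 to 75.9 CPM in the other plates, while endothelial and erythrocyte markers stayed at or below 14.1 CPM. Of the erythrocyte list 3 of 8 markers were matched, with most globin genes missing, and of the endothelial list 8 of 12. The low sums therefore do not show that these cells were absent. The names given do not show which of the genes called *PRRX1*, ENSDARG00000033971 with 321 to 477 transcripts per plate or ENSDARG00000042027 with 3 to 15, is the mutated gene, and a nonsense mutation need not lower its transcript. The study described *prrx1b* in these cells as too low to relate to its clusters, and ENSDARG00000042027 is the rare gene of the pair.

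The 85 genes together took up 0.687 and 0.831% of all transcripts in the WT plates and 0.658 and 0.618% in the *prrx1b*-/- plates. For scale, the mitochondrially encoded genes took up 2.19 to 2.78% and the cytosolic ribosomal proteins 9.16 to 12.7%. The median of the 85 genes lay at 51.7 CPM, and their means over the plates ran from 0.794 CPM (*sdhaf1*) to 440 CPM (*ATP5F1B*). Every gene had at least 10 transcripts over the 4 plates. Complex V was the most abundant by the sum of its genes, 3103 CPM, ahead of complex IV with 1709 CPM and complex I with 1458 CPM, although complex I has more genes than any other. Complexes III and II summed to 462 and 252 CPM. The plot of each gene's level by plate gives this order.

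**Figure D1:**
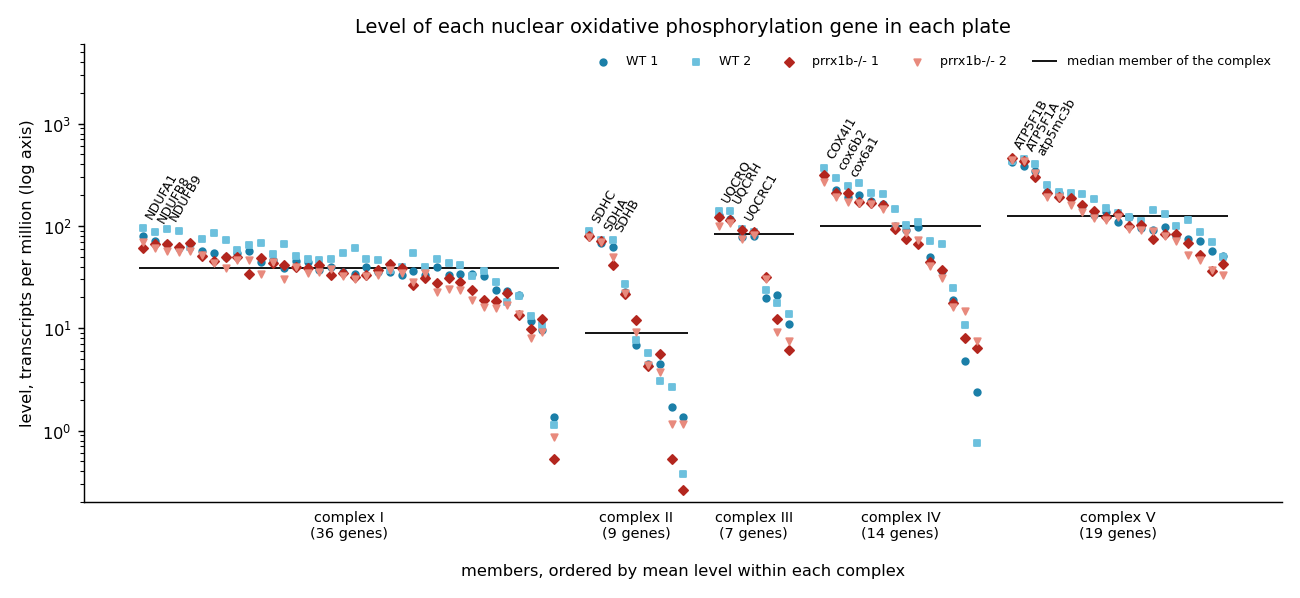
Level of each of the 85 genes in each plate, in CPM on a log axis, ordered by mean level within each complex; the 3 most abundant genes of each complex are named and black lines mark the median gene of the complex. Medians were 39.2 CPM in complex I, 8.91 in complex II, 83.7 in complex III, 99.0 in complex IV and 125 in complex V.

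Complex I was spread evenly over many genes. Its 3 most abundant genes, all small accessory subunits, held only 15.0% of its transcripts. *NDUFA1* (ENSDARG00000036329) was detected at 79.6 and 96.3 CPM in WT plates and at 60.7 and 69.1 CPM in *prrx1b*-/- plates. *NDUFB8* (ENSDARG00000010113) was at 71.4 and 87.1 CPM in WT plates and at 67.1 and 61.3 CPM in *prrx1b*-/- plates. *NDUFB9* (ENSDARG00000041314) was at 66.2 and 92.5 CPM in WT plates and at 66.0 and 56.7 CPM in *prrx1b*-/- plates. For each of these genes both WT plates lay above both *prrx1b*-/- plates, but for *NDUFB9* WT plate 1 and *prrx1b*-/- plate 1 were nearly level. The core subunits that carry the flavin and iron-sulphur clusters were in the same range, for example *NDUFV1*, which binds NADH, at 56.7 to 67.6 CPM and *NDUFS1* at 33.4 to 47.6 CPM. *ndufv3*, with 12 transcripts, was the rarest subunit of complex I. Of the pair *ndufab1b* and *NDUFAB1*, *ndufab1b* held 52.5 and 46.7% of transcripts in WT plates and 44.1 and 41.1% in *prrx1b*-/- plates, without overlap.

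Complex II was carried by 3 of its 9 genes, *SDHC*, *SDHA* and *SDHB*, with 82.7% of its transcripts. *SDHC* (ENSDARG00000038608), a membrane anchor, was at 81.7 and 88.7 CPM in WT plates and at 79.3 and 77.8 CPM in *prrx1b*-/- plates. *SDHA* (ENSDARG00000016721), the flavoprotein that oxidises succinate, was at 67.6 and 72.7 CPM in WT plates and at 71.8 and 69.4 CPM in *prrx1b*-/- plates. *SDHB* (ENSDARG00000075768), the iron-sulphur subunit, was at 62.1 and 72.3 CPM in WT plates and at 41.9 and 49.4 CPM in *prrx1b*-/- plates. *SDHA* did not separate the genotypes, whereas *SDHB* lay lower in both *prrx1b*-/- plates. Of the pair of genes named *SDHD*, the second membrane anchor, ENSDARG00000030139 held 84.6 ± 4.31% (SD, n = 4 plates) of their transcripts and ENSDARG00000055712 the remainder. The assembly factors were rare, from 0.794 CPM for *sdhaf1* to 8.91 CPM for *SDHAF2*.

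In complex III the small subunits *UQCRQ* and *UQCRH* led, followed by the core proteins *UQCRC1* and *UQCRC2*. *UQCRQ* (ENSDARG00000029064) was at 128.0 and 141 CPM in WT plates and at 122.0 and 100.05 CPM in *prrx1b*-/- plates. *UQCRH* (ENSDARG00000059128) was at 118.0 and 138.5 CPM in WT plates and at 114.8 and 107.9 CPM in *prrx1b*-/- plates. *UQCRC1* (ENSDARG00000052304) was at 78.2 and 93.2 CPM in WT plates and at 91.7 and 74.3 CPM in *prrx1b*-/- plates, so that the groups overlapped for this gene. *UQCRFS1* (ENSDARG00000007745), the Rieske iron-sulphur protein, was among the rarest catalytic subunits, at 11.0 and 13.7 CPM in WT plates and 6.10 and 7.52 CPM in *prrx1b*-/- plates. The core protein is encoded by a pair of paralogs, and *uqcrc2a* supplied 19.6 and 21.4% of their transcripts in WT plates and 26.9 and 26.9% in *prrx1b*-/- plates, without overlap.

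Complex IV was led by *COX4I1*, *cox6b2* and *cox6a1*, with 43.9% of its transcripts. *COX4I1* (ENSDARG00000032970), which binds the catalytic core, was at 313 and 370.0 CPM in WT plates and at 312.5 and 271 CPM in *prrx1b*-/- plates. *cox6b2* (ENSDARG00000037860), which faces cytochrome c, was at 222 and 291 CPM in WT plates and at 211 and 194 CPM in *prrx1b*-/- plates. *cox6a1* (ENSDARG00000022438), a regulatory subunit, was at 191 and 246 CPM in WT plates and at 208 and 171 CPM in *prrx1b*-/- plates. WT plate 2 was the highest of the 4 plates for each of these genes, and for *cox6a1* the genotypes overlapped. *COX4I1* was detected in 75.02% of all cells.

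Several complex IV subunits come as isoforms that mammals use in different tissues or oxygen conditions, and the cells used one of each set for most transcripts. *COX4I1* made up 76.4 ± 2.42% (SD, n = 4 plates) of the COX4 transcripts, *COX4I2*, which mammals use in lung and raise in low oxygen, 21.3 ± 1.71%, and *cox4i1l* 2.35 ± 1.18%. *cox6b2* made up 84.6 ± 2.29% of its pair and *cox6b1* 15.4 ± 2.29%. Of the COX7A genes, *COX7A2L* held 54.8 ± 2.97%, *COX7A2* 32.8 ± 2.26% and *cox7a1*, whose mammalian counterpart is the heart and muscle form, 12.4 ± 0.915%. *cox6a1* held 65.1 ± 2.86% and the other *COX6A1* gene (ENSDARG00000054588) 34.9 ± 2.86%. These shares overlapped between the genotypes except for *cox7a1*, which held 11.4 and 12.1% in WT plates and 13.6 and 12.5% in *prrx1b*-/- plates. Reads of near-identical copies could have been split between them by the mapping, and this was not tested.

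Complex V held the most abundant genes of the whole group. *ATP5F1B* (ENSDARG00000070083), the catalytic beta subunit, was at 426 and 431 CPM in WT plates and at 459.8 and 442 CPM in *prrx1b*-/- plates. *ATP5F1A* (ENSDARG00000010149), the alpha subunit beside it, was at 382 and 447.5 CPM in WT plates and at 434 and 429.6 CPM in *prrx1b*-/- plates. *atp5mc3b* (ENSDARG00000009447), a subunit of the rotating c ring, was at 344 and 404 CPM in WT plates and at 303.5 and 328 CPM in *prrx1b*-/- plates. *ATP5F1B* was thus one of the few genes with both *prrx1b*-/- plates above both WT plates, *ATP5F1A* overlapped, and *atp5mc3b* was lower in both *prrx1b*-/- plates. The c ring is encoded by several genes with the same mature protein in mammals, and here *atp5mc3b* held 55.9 ± 2.00% (SD, n = 4 plates), *atp5mc1* 22.9 ± 2.06% and *ATP5MC3* 21.2 ± 0.959% of their transcripts. *atp5meb* held 56.7% and *atp5mea* 43.3% of the e subunit, each ± 2.68%. The inhibitor was split between *atp5if1a* with 58.8% and *atp5if1b* with 41.2%, each ± 3.79%. The share of *atp5if1a* was 58.4 and 63.9% in WT plates and 54.7 and 58.0% in *prrx1b*-/- plates, narrowly without overlap.

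The genotype comparison asked whether loss of *prrx1b* went with another level of these genes in epicardium-derived cells of the injured heart. As a share of all transcripts the 85 genes averaged 0.759 ± 0.102% in WT and 0.638 ± 0.0288% in *prrx1b*-/- plates (SD, n = 2 plates each), a mean 15.9% lower. WT plate 2 stood highest at 0.831%, and WT plate 1 at 0.687% was close to *prrx1b*-/- plate 1 at 0.658%. The share of complex I was 0.146 and 0.184% in WT plates and 0.132 and 0.121% in *prrx1b*-/- plates, a mean 23.1% lower. That of complex IV was 0.166 and 0.211% in WT plates and 0.158 and 0.148% in *prrx1b*-/- plates, a mean 19.1% lower. Complex V differed less, with 0.303 and 0.356% in WT plates against 0.298 and 0.283%, a mean 11.8% lower, and complex II with 0.0253 and 0.0280% against 0.0237 and 0.0238%, a mean 10.8% lower, a direction that turned when each cell was thinned to 1000 transcripts. Complex III overlapped between genotypes, at 0.0456 and 0.0514% in WT plates and 0.0465 and 0.0411% in *prrx1b*-/- plates.

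**Figure D2:**
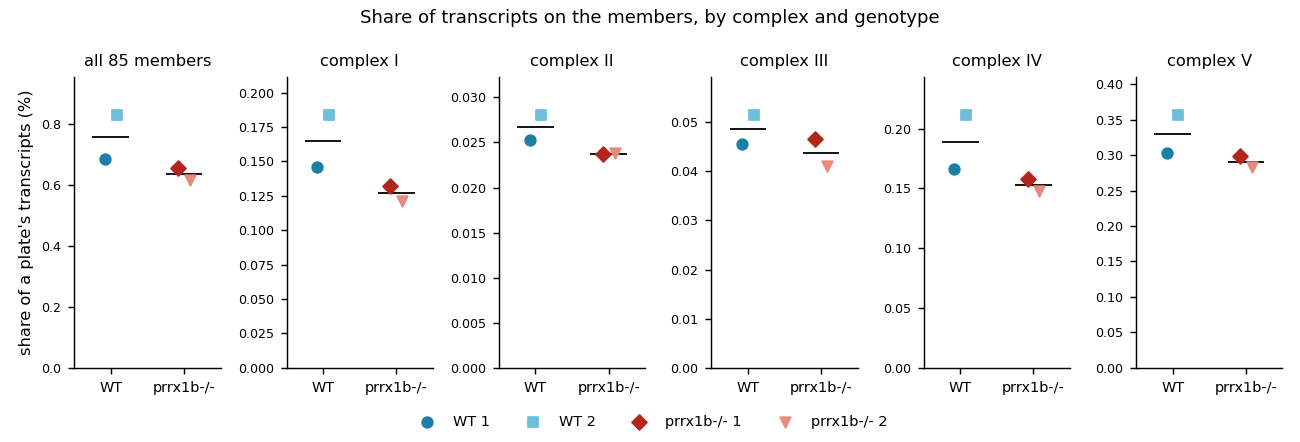
Share of each plate's transcripts on the 85 genes and on each complex (per cent, axes from 0), with 1 point per plate and a line at the mean of each genotype. In these plain shares of plate totals, WT plate 2 is the highest point in every panel, and complex III is the only panel in which the genotypes overlap.

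Gene by gene, both *prrx1b*-/- plates lay below both WT plates for 55 of the 85 genes and above them for 4 (*SDHAF2*, *uqcrc2a*, *ATP5F1B* and *COX5B* ENSDARG00000068738), and the other 26 overlapped. Among the 82 genes with enough counts to be tested, 53 (64.6%) were lower without overlap, where 24.2% of the 11191 genes tested were, and 4 (4.88%) were higher, where 20.6% were. The lower genes were spread over the complexes, 25 of 36 in complex I, 5 of 9 in complex II, 4 of 7 in complex III, 9 of 14 in complex IV and 12 of 19 in complex V.

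Differences were tested on counts summed per plate with edgeR's quasi-likelihood test, with Benjamini-Hochberg adjustment over all genes tested and a call at an adjusted p under 0.05. Levels, shares and their overlaps are of plain plate totals. In edgeR each plate was also scaled by a factor, 1.03 and 0.982 for the WT plates and 0.987 and 1.00 for the *prrx1b*-/- plates. Divided by these factors, the shares of all 85 genes and of complex V in WT plate 1 no longer lay above those in *prrx1b*-/- plate 1. Their separation by genotype therefore does not hold under that scaling, and other narrow separations can depend on it. None of the 82 genes was called, where 0.974% of all genes tested were, and 24 of the 82 had an unadjusted p under 0.05, where 14.0% of all genes tested did. DESeq2 tested 68 of them and also called 0, with 10 at an unadjusted p under 0.05, where 13.1% of the genes it tested were. The fitted log2 fold change, *prrx1b*-/- over WT, was below 0 for 69 genes and above 0 for 13, with a median of -0.27 against -0.013 over all genes tested. Medians by complex were -0.41 in complex I, with 32 of 35 genes below 0, -0.10 in complex II, -0.19 in complex III, -0.29 in complex IV and -0.25 in complex V.

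**Figure D3:**
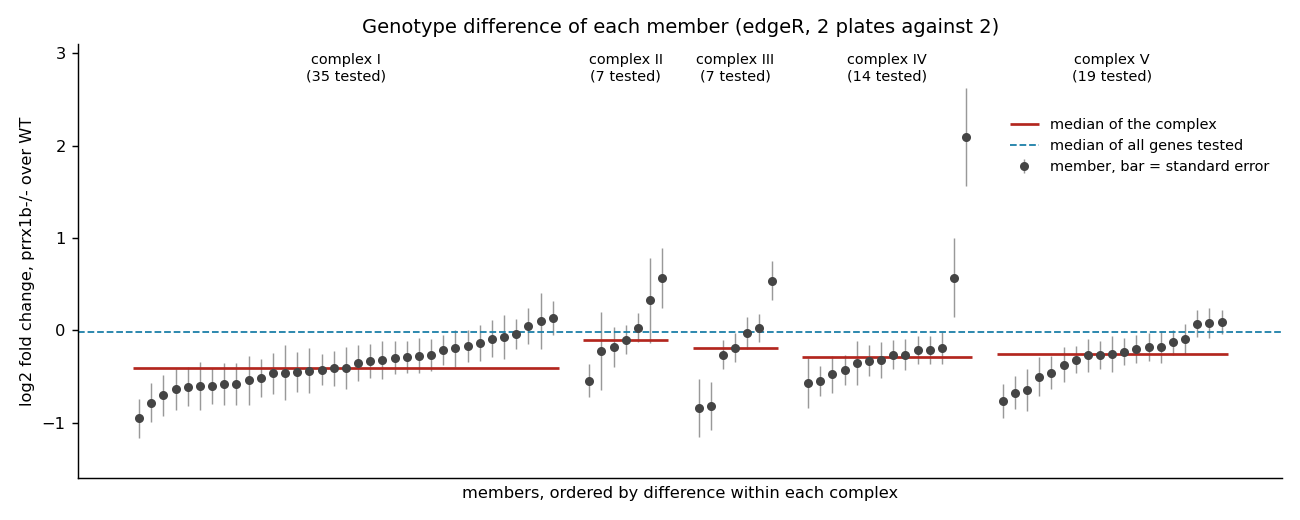
Fitted log2 fold change of each tested gene, *prrx1b*-/- over WT, with its standard error (edgeR, 2 plates against 2), ordered within each complex; red lines mark the median of the complex and the dashed line the median of all genes tested. Most points of complex I lie below the dashed line. The rare *COX5B* (ENSDARG00000068738), which passed the filter on low counts through the *prrx1b*-/- plates, stands apart at 2.09.

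The 5 genes with the lowest adjusted p were picked after their values were seen. *ndufa11* (ENSDARG00000042777), an accessory subunit of the membrane arm of complex I, was at 32.3 and 36.5 CPM in WT plates and at 18.8 and 16.2 CPM in *prrx1b*-/- plates, a log2 fold change of -0.95 (SE 0.21, adjusted p = 0.0618 by edgeR's quasi-likelihood test). *atp5md* (ENSDARG00000096003), a small membrane subunit of ATP synthase, was at 56.6 and 70.0 CPM in WT plates and at 36.6 and 37.0 CPM in *prrx1b*-/- plates, a log2 fold change of -0.77 (SE 0.18, adjusted p = 0.0746 by edgeR). Their genotypes did not overlap, and neither passed the threshold. *ndufab1b* (ENSDARG00000014915), which in mammals also serves as the mitochondrial acyl carrier protein, was at 39.5 and 47.9 CPM in WT plates and at 27.6 and 22.6 CPM in *prrx1b*-/- plates (log2 fold change -0.78, SE 0.21, adjusted p = 0.106 by edgeR). *atp5if1a* (ENSDARG00000067975), the inhibitor, was at 70.7 and 87.5 CPM in WT plates and at 51.9 and 46.0 CPM in *prrx1b*-/- plates (log2 fold change -0.67, SE 0.18, adjusted p = 0.108 by edgeR). In the opposite direction, the rare gene *COX5B* ENSDARG00000068738, a paralog of the zinc-binding subunit of complex IV, was at 2.40 and 0.761 CPM in WT plates and at 6.36 and 7.52 CPM in *prrx1b*-/- plates, a log2 fold change of 2.09 (SE 0.53, adjusted p = 0.0927 by edgeR). Those levels rest on 59 transcripts in 47 cells. The gene passed the filter on low counts through the *prrx1b*-/- plates, where it is higher. Its values are therefore a description and its p supports nothing. Its abundant partner *COX5B* ENSDARG00000015978 held 97.7 ± 1.90% (SD, n = 4 plates) of the pair. That share was 98.8 and 99.7% in WT plates and 96.4 and 95.8% in *prrx1b*-/- plates, without overlap.

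How large the difference was depended on which WT plate was kept. The mean share differed between genotypes by -0.193 percentage points without WT plate 1. With 2 WT plates, leaving out either one moves this difference equally, in opposite directions, by arithmetic. It therefore cannot show which WT plate was the unusual one. Without WT plate 2, 0 of the 82 genes were called, the median log2 fold change was -0.056 and the mean share differed by -0.0485 percentage points instead of -0.121. Without WT plate 1, 22 genes were called lower and 1 higher, where 2.50% of all genes tested in that fit were lower and 2.33% higher, with a median of -0.43. The share differed by -0.115 percentage points without cells holding 5 or more cardiomyocyte transcripts and by -0.119 without those holding 5 or more leukocyte transcripts, the latter being an alternative added after the data were seen. The sum of the injury epicardium markers also moved with genotype, with 0.167 and 0.156% of transcripts in WT plates and 0.190 and 0.217% in *prrx1b*-/- plates. It moved most through *cldc1*, at 402 and 384 CPM in WT plates and 602 and 764 CPM in *prrx1b*-/- plates. *aldh1a2* (578 and 576 against 631 and 738 CPM) and *wt1b* (262 and 250 against 281 and 284 CPM) were also higher, and *adh8a* overlapped (426 and 349, 382 and 388 CPM). The part of other cells and of the makeup of the epicardial cells in the difference was not tested. Depth, which was greater in the *prrx1b*-/- plates, also moved with genotype. With each cell thinned to 1000 transcripts the share was 0.589 and 0.701% in WT plates and 0.564 and 0.553% in *prrx1b*-/- plates, without overlap. Complexes I, III and IV were then without overlap, whereas complex V overlapped (0.254 and 0.297% in WT plates, 0.253 and 0.254% in *prrx1b*-/- plates) and so did complex II (0.0204 and 0.0269%, 0.0219 and 0.0262%). Scaling by spike-in molecules instead of by the bulk of the genes moved the median of all genes tested to 0.19 and that of the 82 genes to -0.067.

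Related gene lists gave a context for these values. Of 70 ribosomal protein genes tested, 8 were called lower and 67 had a fold change below 0, with a median log2 fold change of -0.39. Of 61 mitochondrial ribosomal protein genes 0 were called, with a median of -0.36, and of 24 assembly factors 0 were called, with a median of -0.24. The 13 mitochondrially encoded genes tested had 0 calls and a median of -0.17, and the 14 genes of the TCA cycle 0 calls and a median of -0.024. Most glycolysis genes went the other way, with 2 of 19 called higher (*PFKFB3* and *ALDOC*) and a median of 0.43. Their share of transcripts was 0.278 and 0.319% in WT plates and 0.411 and 0.388% in *prrx1b*-/- plates. Within this list *GAPDH* (-1.88, adjusted p = 0.0568 by edgeR), *pfkfb2a* (-0.88) and *PFKFB4* (-0.59) were lower without a call. The list was matched by name, and it includes *pkmyt1* (0.74), which is not a glycolysis gene. Each of these medians stands against -0.013 over all genes tested, of which 0.974% were called in either direction.

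Cells differed from each other in these genes by more than counting alone gives. The share of a cell's transcripts on the 85 genes had a median of 0.535 and 0.618% in WT plates and 0.518 and 0.501% in *prrx1b*-/- plates, and its SD over cells was 2.04 to 2.22 times that expected from counting. The middle 90% of cells ran from 0.283 to 1.05% in WT plate 1 and from 0.260 to 1.03% in *prrx1b*-/- plate 2. A median cell held 29.5 to 40.5 transcripts of the group, from 21.0 to 25.5 of its genes, and every cell held at least 1. After thinning each cell to 1000 transcripts, correlations between complexes across the cells of a plate were 0.014 to 0.253, too weak in counts this sparse to call the complexes coordinated.

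The share rose in the cells with the most transcripts. The cells of each plate were split by total transcripts into 3 bins of like size (shallow, middle and deep), a comparison added after the data were seen. From the shallow to the deep bin, the share on the 85 genes was 0.515, 0.533 and 0.780% in WT plate 1 and 0.585, 0.605 and 0.956% in WT plate 2. It was 0.480, 0.518 and 0.753% in *prrx1b*-/- plate 1 and 0.508, 0.485 and 0.697% in *prrx1b*-/- plate 2. The step lay between the middle and the deep bin in every plate, and within each bin both WT plates lay above both *prrx1b*-/- plates. The mitochondrially encoded genes were at 2.75, 1.73 and 2.27% in WT plate 1, 3.00, 2.41 and 2.88% in WT plate 2, 2.52, 2.05 and 2.40% in *prrx1b*-/- plate 1 and 2.52, 2.31 and 2.36% in *prrx1b*-/- plate 2. Their share also rose from the middle to the deep bin in every plate, but the shallow bin was the highest. Glycolysis genes made a step like that of the 85 genes, from 0.212 to 0.314% and from 0.216 to 0.374% between the middle and the deep bin of the WT plates and from 0.311 to 0.470% and from 0.287 to 0.448% in the *prrx1b*-/- plates. The cells of the deep bin also had more transcripts of the fibroblast markers, 2.63 to 3.96% against 1.83 to 2.44% of transcripts in the other cells of the same plates. Pericyte markers were at 0.146 to 0.234% in the shallow bins and at 0.0258 to 0.0329% in the deep bins. Remote epicardium markers were at 0.0586 to 0.0692% and 0.0189 to 0.0238%, and injury epicardium markers at 0.0698 to 0.120% and 0.155 to 0.243%, in the same order. A well's total reflects both the RNA of its cell and how well it was captured.

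**Figure D4:**
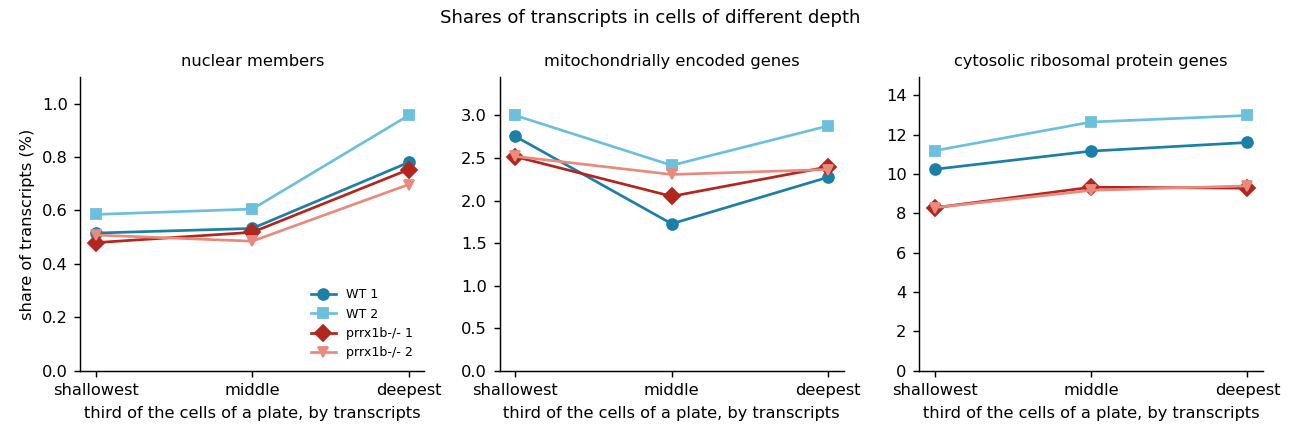
Share of transcripts (per cent, axes from 0) on the 85 nuclear genes, the mitochondrially encoded genes and the cytosolic ribosomal protein genes in the shallow, middle and deep bin of each plate's cells, with 1 line per plate. The nuclear genes end at 0.697 to 0.956% in the deep bin after 0.485 to 0.605% in the middle, and the mitochondrially encoded genes are lowest in the middle bin of every plate.

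With the deep bin of each plate set against its other cells, edgeR with the plate as a block called 59 of 80 genes (73.8%) higher and 1 lower, where 16.3% of 9997 genes were called higher and 16.3% lower. The median log2 fold change of the 80 genes was 0.63, against 0.0097 over all genes tested. The genes called higher were 25 of 35 in complex I, 2 of 5 in complex II, 5 of 7 in complex III, 11 of 14 in complex IV and 16 of 19 in complex V. When the cells were ranked within 10 classes of the fibroblast share instead, so that both ranges held like shares of fibroblast markers, 59 of 80 were higher and 0 lower with a median of 0.52 (background 13.2% higher and 13.6% lower of 9862 genes), and 55 of the 60 first calls were shared. That ranking did not match the pericyte or epicardium markers, and the part of cell makeup in the rise was not tested. In the first comparison, leaving out each plate in turn gave 50 to 55 calls. Among the other lists, 7 of 13 mitochondrially encoded, 7 of 14 TCA cycle, 11 of 57 mitochondrial ribosomal protein and 24 of 70 ribosomal protein genes were higher, with medians of 0.16, 0.47, 0.46 and 0.13, and of 19 glycolysis genes 8 were higher and 2 lower, with a median of 0.24.

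A few rare isoforms were found mostly in the deep bin. *cox6b1* (ENSDARG00000045230), the minor partner of *cox6b2*, was at 53.8 CPM in the deep bin against 5.60 CPM in the other cells of WT plate 1, 95.4 against 14.2 in WT plate 2, 50.2 against 16.6 in *prrx1b*-/- plate 1 and 45.8 against 7.50 in *prrx1b*-/- plate 2. Its log2 fold change was 2.46 (SE 0.23, adjusted p = 4.43e-07 by edgeR's quasi-likelihood test), and the ranges did not overlap. With the fibroblast share matched it was 1.28 (adjusted p = 6.48e-05 by edgeR). The deep bin held 94.3, 92.6, 83.0 and 90.7% of its transcripts in the 4 plates, though it held 61.3 to 65.1% of all transcripts. *cox6b2* had a smaller log2 fold change of 0.47, at 248 against 178, 334 against 212, 227 against 186 and 207 against 172 CPM in the same order of plates.

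*ndufa4b* (ENSDARG00000056108) was at 14.1 against 1.86 CPM in WT plate 1, 16.4 against 0 in WT plate 2, 18.9 against 1.39 in *prrx1b*-/- plate 1 and 14.2 against 1.49 in *prrx1b*-/- plate 2. It had 128 transcripts in the deep bins and 6 in the other cells, in 70 cells in all. *cox4i1l* (ENSDARG00000012388), the rarest COX4 gene, was at 6.53 against 1.86, 16.4 against 0, 10.7 against 3.47 and 23.6 against 0.746 CPM in the same order. It had 115 transcripts in the deep bins and 8 in the other cells, and 10 of its 43 cells held 56.1% of its transcripts. Both genes were picked for this pattern and passed the filter on low counts through the deep bin, so their values are a description and their calls among the 59 support nothing. The rare *COX5B* ENSDARG00000068738 was also called higher (log2 fold change 1.48, adjusted p = 0.0366 by edgeR). With so few transcripts it may have passed the filter in the same way, so its call supports nothing either.

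These isoforms were often found in the same cells. Among the 484 cells of the deep bins, *cox6b1* was detected in 51 of 64 cells with *ndufa4b* (79.7%) and in 146 of 420 without it (34.8%). The cells with *ndufa4b* were deeper, with a median of 21973 against 13795 transcripts. Cells with 5 or more cardiomyocyte transcripts were 4 of the 64 and 10 of the 420, a larger share of the former. The part of depth and of cardiomyocyte transcripts in this overlap was not tested.

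Some abundant genes made a smaller rise in every plate. *cox6a1* rose by 1.29 on the log2 scale (SE 0.10, adjusted p = 5.65e-08 by edgeR), *atp5mc1* by 1.11 and *ATP5F1A* by 0.72 (SE 0.079, adjusted p = 2.41e-06 by edgeR). Other abundant genes were not called, for example *COX6A1* ENSDARG00000054588 (0.25, adjusted p = 0.103 by edgeR) and *SDHB* (0.040, adjusted p = 0.862 by edgeR). *COX4I2* was the gene called lower, at 87.5 against 95.8 CPM in WT plate 1, 87.7 against 129.6 in WT plate 2, 63.9 against 92.2 in *prrx1b*-/- plate 1 and 74.1 against 100.8 in *prrx1b*-/- plate 2. Its log2 fold change was -0.37 (SE 0.12, adjusted p = 0.0261 by edgeR), and with the fibroblast share matched it was -0.25 with an adjusted p of 0.110, so that the call was lost. The call was also lost without WT plate 2 (-0.34), without *prrx1b*-/- plate 1 (-0.34) and without *prrx1b*-/- plate 2 (-0.39).

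The study set epicardium-derived cells apart by markers, and the genes were compared between cells rich and poor in 4 marker lists: remote epicardium, injury epicardium (*aldh1a2*, *wt1b* and others), fibroblast (collagens, *postnb* and others) and pericyte (*kcnj8*, *notch3* and others, 6 of 7 markers matched). The 25% of the cells of each plate with the largest share of transcripts on a list was set against the other cells, with the plate as a block and the list's own genes left out. Such ranges share cells with each other and are not cell types, and the fibroblast ranking rests mainly on collagen transcripts. The counts of calls that follow come from edgeR over all 4 plates. Remote epicardium-rich cells had 44 of 79 genes lower and 0 higher (background 10.6% lower and 8.52% higher of 10013 genes), with a median log2 fold change of -0.55. Fibroblast-rich cells had 41 of 81 higher and 2 lower (background 11.0% higher and 12.4% lower of 9614 genes), with a median of 0.44. Pericyte-rich cells had 21 of 81 lower and 0 higher (background 8.32% lower and 9.18% higher of 9885 genes), with a median of -0.39. Injury epicardium-rich cells had 2 of 80 higher and 1 lower (background 10.9% higher and 8.74% lower of 9717 genes), with a median near 0. Leaving out a plate lowered some counts by more than 1.5 times. Remote epicardium-rich cells had 25 calls without WT plate 2, 25 without *prrx1b*-/- plate 1 and 29 without *prrx1b*-/- plate 2, fibroblast-rich cells 28 without WT plate 2, and pericyte-rich cells 10 without WT plate 1 and 13 without WT plate 2.

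Depth moved with these ranges. Remote epicardium-rich cells had a median of 4245 transcripts against 7466 in the other cells of WT plate 1 and 4977 against 8921 in *prrx1b*-/- plate 2, and fibroblast-rich cells 8315 against 5423 and 9662 against 6677. The cells were therefore also ranked within 10 classes of depth, an alternative added after the data were seen. Remote epicardium-rich cells then had 1 of 80 genes lower and 0 higher (background 2.92% lower and 2.44% higher of 9738 genes), with a median of -0.19. Pericyte-rich cells had 0 of 81 called by edgeR (background 2.99% lower and 3.30% higher of 9723 genes), 6 of them at an unadjusted p under 0.05, with a median of -0.11. Fibroblast-rich cells had 4 of 80 higher and 2 lower (background 5.21% higher and 6.60% lower of 9531 genes), with a median of 0.12. Injury epicardium-rich cells had 2 of 80 higher and 2 lower (background 8.71% higher and 8.51% lower of 9569 genes), with a median of 0.04. At like depth the counts of called genes were thus near or below the background.

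Since these counts did not exceed the background, the genes called at like depth are given as single genes, chosen after their values were seen. *cox7a1* and *cox6b1* were each called in opposite directions in fibroblast-rich and injury epicardium-rich cells. *cox7a1* (ENSDARG00000069464) was at 9.3 CPM in fibroblast-rich against 22.2 CPM in the other cells of WT plate 1, 13.4 against 28.6 in WT plate 2, 5.3 against 21.6 in *prrx1b*-/- plate 1 and 10.3 against 18.2 in *prrx1b*-/- plate 2. Its log2 fold change was -1.24 (SE 0.28, adjusted p = 0.00456 by edgeR). In injury epicardium-rich cells it was higher, at 27.5 against 15.8, 47.6 against 17.2, 31.1 against 13.2 and 31.1 against 11.4 CPM, a log2 fold change of 1.31 (SE 0.22, adjusted p = 0.000375 by edgeR). The direction was the same in every plate in both ranges, and the gene rests on 242 transcripts in 189 cells. Cardiomyocyte markers were lower in the injury epicardium-rich cells of every plate. For example, they were at 52.4 against 318 CPM in WT plate 1 and 7.68 against 31.9 CPM in WT plate 2. The part of cardiomyocyte transcripts in the *cox7a1* levels of either range was not tested.

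*cox6b1* was at 58.4 against 28.2, 107 against 53.2, 45.5 against 34.7 and 60.6 against 20.9 CPM in fibroblast-rich against other cells of like depth, a log2 fold change of 1.00 (SE 0.18, adjusted p = 0.000497 by edgeR). In injury epicardium-rich cells it was lower, at 23.6 against 40.5, 52.2 against 71.9, 23.3 against 41.8 and 18.0 against 35.1 CPM, a log2 fold change of -0.67 (SE 0.18, adjusted p = 0.0162 by edgeR). Each plate showed both directions. Leaving out each plate was run without the ranking by depth, and there *cox7a1* and *cox6b1* kept their calls in both ranges. At like depth its abundant partner *cox6b2* and *COX4I1* were called in neither range.

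*COX4I2* was lower in fibroblast-rich cells, at 71.6 against 97.2, 72.8 against 112.5, 56.0 against 81.0 and 73.1 against 88.3 CPM, a log2 fold change of -0.44 (SE 0.13, adjusted p = 0.0333 by edgeR), and *cox6a1* was higher, at 239 against 174, 282.5 against 233, 264 against 189 and 210 against 157 CPM, a log2 fold change of 0.43 (SE 0.095, adjusted p = 0.00423 by edgeR). Outside complex IV, the fibroblast-rich cells had more *ndufb3* (log2 fold change 0.58, adjusted p = 0.0131 by edgeR) and *atp5mc1* (0.38, adjusted p = 0.0341 by edgeR). The injury epicardium-rich cells had more *atp5if1b*, the inhibitor of ATP synthase, at 61.5 against 46.5, 66.0 against 44.0, 54.4 against 39.3 and 43.1 against 30.1 CPM (log2 fold change 0.56, SE 0.16, adjusted p = 0.0186 by edgeR). Without the ranking by depth, that call was lost when WT plate 2 (0.52) or *prrx1b*-/- plate 1 (0.44) was left out. They also had less *COX6A1* ENSDARG00000054588 (-0.47, adjusted p = 0.0180 by edgeR), which was not called without the ranking by depth (-0.25, adjusted p = 0.288 by edgeR). In remote epicardium-rich cells the gene called was *COX7A2*, at 36.0 against 54.8, 58.7 against 74.7, 31.6 against 49.2 and 33.7 against 43.4 CPM (log2 fold change -0.56, SE 0.16, adjusted p = 0.0495 by edgeR), lower in every plate and close to the threshold.

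**Figure D5:**
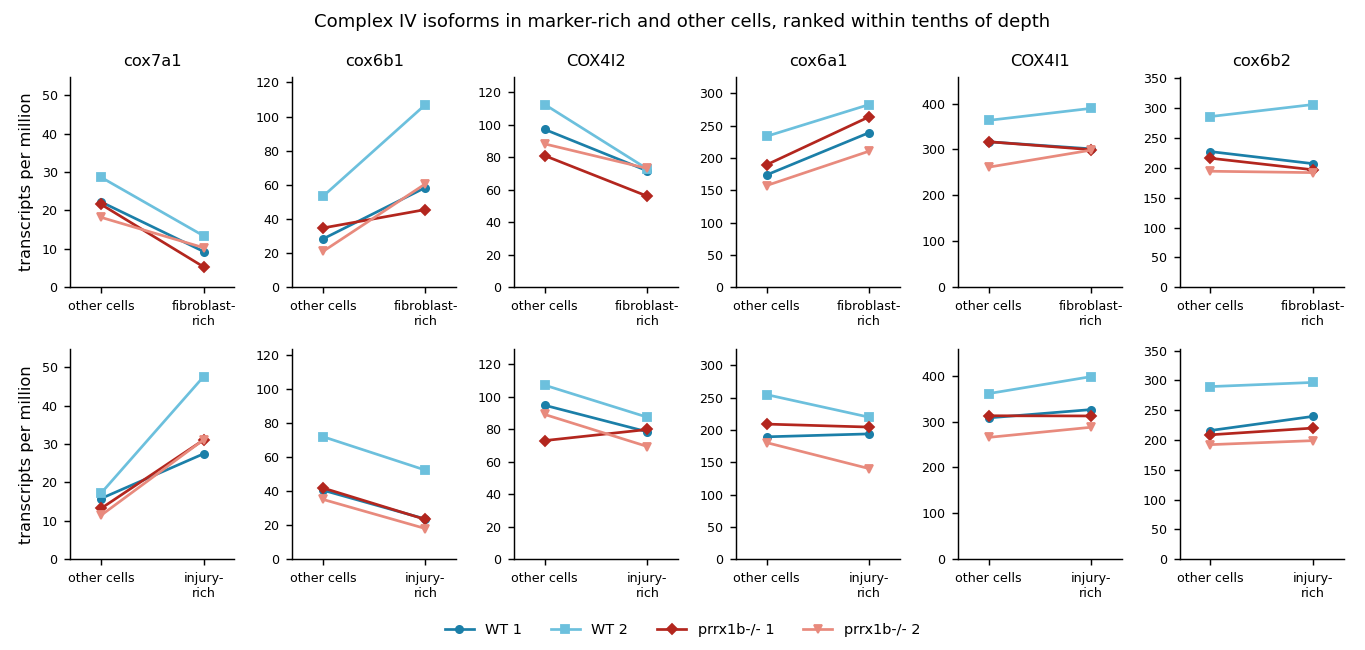
Level (CPM, axes from 0) of 6 complex IV genes in marker-rich and other cells of each plate, ranked within 10 classes of depth, with fibroblast-rich cells in the upper and injury epicardium-rich cells in the lower row and 1 line per plate. *cox7a1* falls in fibroblast-rich and rises in injury epicardium-rich cells in each of the 4 plates, *cox6b1* does the opposite, and *COX4I1* and *cox6b2* were not called.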

How the data were processed

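Sorted single cells were processed by SORT-seq in 4 plates of 384 wells. The deposited values are expected counts, in which the authors corrected the number of molecular barcodes per gene and well for barcodes drawn more than once and did not scale by depth; reads had been aligned with BWA 0.6.2 to Zv9 gene models. Counts were summed over wells of at least 1000 transcripts, per plate or per plate and range of cells, and rounded. edgeR 4.0.16 in R 4.3.3 (TMM, filterByExpr, quasi-likelihood test, Benjamini-Hochberg over all genes tested) was the main test and DESeq2 1.42.0 an alternative; the tests were tested on simulated data. The 384 well barcodes are the same in every plate by design. No doublet caller was run, since wells were sorted singly. Other alternatives were cell and count filters, thinning to 1000 transcripts, spike-in scaling, a replicate block and leaving out each plate. The genes and lists were chosen with earlier results of these data known. Genes were named if called by genotype, if among the 3 most abundant of a complex, or if paralogs with at least 10 transcripts; those named for the deep bin, the marker-rich cells or the lowest adjusted p were chosen after their values were seen, as were the other single genes given with levels.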

Additional observations from a re-analysis of the deposited data

Results flagged for a closer look

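The 83 wells that held fewer than 1000 transcripts, left out above, still contained 142 transcripts of the 85 genes, found in 54 of these wells. These transcripts numbered 44 and 53 in the WT plates and 17 and 28 in the *prrx1b*-/- plates. Their share of those wells' transcripts was 0.604 and 0.637% in the WT plates and 0.405 and 0.615% in the *prrx1b*-/- plates. In the shallow bin of the cells kept, the shares were 0.515 and 0.585% in the WT plates and 0.480 and 0.508% in the *prrx1b*-/- plates, so the left-out wells lay higher in 3 plates and lower in *prrx1b*-/- plate 1. The source of these transcripts was not tested.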

How the results depend on the processing

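In the genotype comparison, where no gene of the 82 was called, spike-in scaling and leaving out leukocyte-marked cells gave 1 call each, a filter at 200 transcripts gave 2 of 73, no filter 6 of 85 and a replicate block 7 (6 lower). The share of all genes called under each of these alternatives is not given, so the counts cannot be read as above or below it. Deviations of same-numbered plates from their genotype means correlated at 0.039. With 2 plates per genotype these deviations mirror each other, so this 1 value cannot show whether same-numbered plates were processed together. Leaving out plates gave 0 to 23 calls, and the share difference ran from -0.193 to -0.0485 percentage points over these. Complex II differed by -0.0029 percentage points, turned to 0.00036 after thinning and was -0.0043 without ribosomal protein and mitochondrially encoded genes. Remote epicardium-rich cells had 26 calls with the top 10% of cells, 26 with plain library totals, 0 of 41 genes after thinning and 1 at like depth, and 25 to 30 when leaving out plates. Injury epicardium-rich cells had 0 of 43 after thinning and 5 with plain totals, and 2 to 4 when leaving out plates. Fibroblast-rich cells had 3 of 54 after thinning and 6 at like depth, and 28 to 38 when leaving out plates. Pericyte-rich cells had 7 with the top 10%, 0 of 43 after thinning, 11 with plain totals and 0 at like depth, and 10 to 15 when leaving out plates. Except at like depth, the counts for marker-rich cells under these alternatives are likewise given without the share of all genes called. Among the other values, for single genes and the shares of complexes, 218 were unchanged under an alternative. Of the rest, 19 came to pass the threshold, 11 lost it, 1 moved and 1 turned its direction. Unchanged means the same direction and side of the threshold for a single gene. For the share of a complex, which has no threshold, it means the same direction and a move under the pooled SD of its plates. Thinning leaves fewer genes to test, and the cause of the other changes was not tested.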
